A study of Homo sapiens with 4 samples.

Results

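Prolyl 4-hydroxylases are enzymes of the endoplasmic reticulum that hydroxylate proline residues in procollagen, a change needed for a stable collagen triple helix. The active enzyme is a tetramer of catalytic alpha subunits, encoded by P4HA1, P4HA2 or P4HA3, and of the beta subunit P4HB. P4HB is also known as protein disulfide isomerase and helps many secreted proteins to fold. ADAR, whose binding was mapped here, is the enzyme that edits adenosines to inosines within RNA duplexes, many of which form where a transcript folds back on itself.

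The 3 genes P4HA1, P4HA2 and P4HB were examined in enhanced crosslinking and immunoprecipitation (eCLIP) data of K562 cells, an established human chronic myeloid leukaemia line. The data comprised 2 libraries of RNA immunoprecipitated (IP) with an ADAR1 antibody and 2 input libraries labelled as having none, all from cells with no treatment that were crosslinked by ultraviolet light of 254 nm at 400 mJ/cm2. Each IP library was set against the input library of the same number, as replicates 1 and 2. The submitters' labels do not say whether the replicates were separate cultures, and the spread between the replicates may therefore be technical. A row of the deposited lists belonged to a gene when its midpoint lay in the RefSeq span of the gene (GRCh38.p14) on the gene's strand. By this rule the 3 genes held 294 of 534161 clusters in replicate 1, 127 of 155848 in replicate 2, and 10 of 1717 peaks in the list that combines both replicates, called the reproducible list below. The genes were chosen on these values, so the counts that follow describe them and were not tested.

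Every fold is the authors' log2 of IP over input for that cluster. Enriched clusters are those that reach 3 in both measures, the log2 fold and the −log10 p. Where p allowed it, the reads behind a fold were recovered from the fold and its p together. Otherwise only the lowest ratio of reads is known. The 95% intervals are exact binomial intervals of IP against input reads, which cover counting error only. No fold was infinite, so a cluster without input reads, if there was any, was listed with at least 1. IP depth relative to input was 3.33 in replicate 1 and 0.553 in replicate 2, so the same fold stands for more IP reads per input read in replicate 1. The genes are described by span only, since exons were not used here, and whether a site lies in an intron was not determined.

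P4HA1 lies on chromosome 10, positions 73007217 to 73096866, on the minus strand, a span of 89.65 kb. P4HA2 lies on chromosome 5, positions 132190147 to 132227853, and P4HB on chromosome 17, positions 81843166 to 81860535, both also on the minus strand. No cluster lay on the plus strand inside any of the 3 spans, in either replicate. All 10 reproducible peaks belonged to P4HA1, while P4HA2 and P4HB had 0.

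P4HA1 had 14 enriched clusters among 202 in replicate 1 (6.93%, against 1.39% of all clusters) and 23 among 99 in replicate 2 (23.2%, against 12.8% of all clusters). Since the gene was chosen on these values, nothing is read from the difference to all clusters. Its clusters ranged from a log2 fold of −2.89 to 6.63 in replicate 1 and from −2.52 to 6.83 in replicate 2. The clusters that were not enriched had a median log2 fold of −0.15 in replicate 1 and 1.81 in replicate 2. In replicate 1 the lowest enriched cluster stood at log2 3.16 and the highest of the others at 2.95. In replicate 2 the lowest enriched cluster stood at 3.08, while a cluster of 7 IP reads and 1 input read at 3.66 was not enriched because its −log10 p was 2.398.

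**Figure D1:**
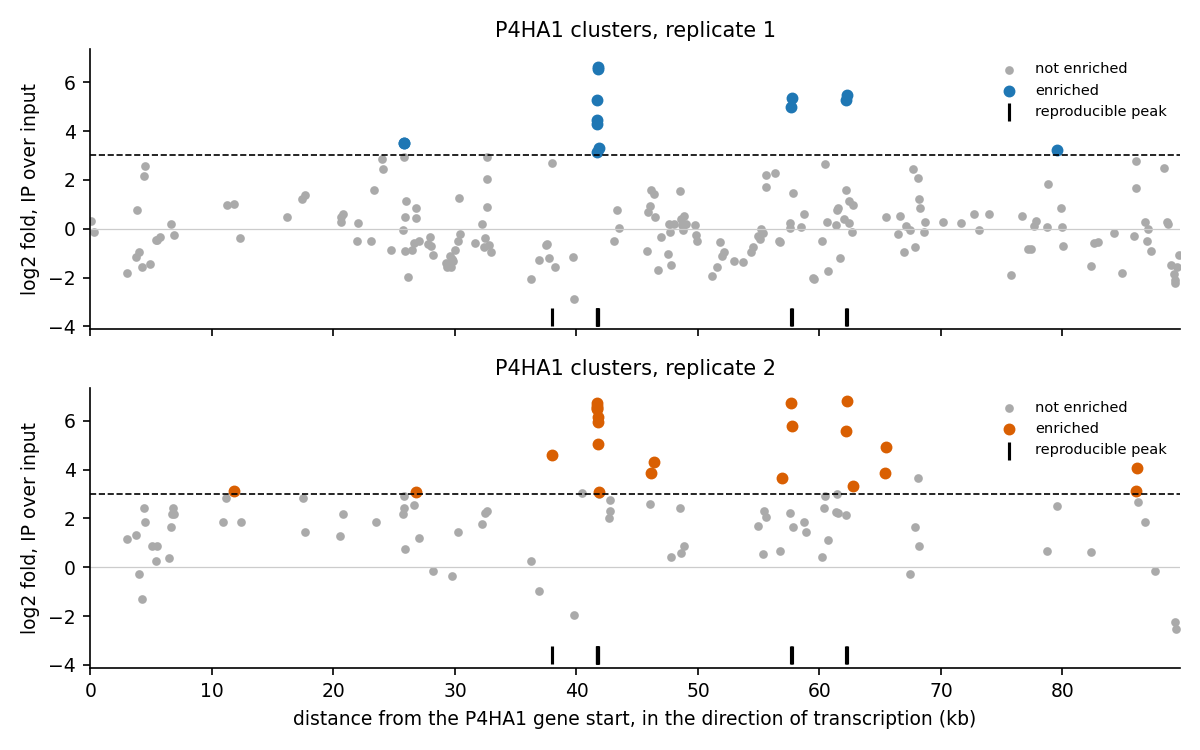
Log2 fold of IP over input (vertical axis) of each P4HA1 cluster against its distance from the gene start in kb (horizontal axis), with replicate 1 above and replicate 2 below. Coloured points are enriched, the dashed line marks log2 3, and black ticks mark the 10 reproducible peaks, which stand at 4 places between 38.0 and 62.2 kb.

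Touching enriched clusters of either replicate formed 16 sites in P4HA1, which together covered 1408 bases, or 1.57% of the gene. Of these sites, 4 were enriched in both replicates, 2 in replicate 1 only and 10 in replicate 2 only. The enriched sites lay between 11.8 and 86.1 kb from the gene start. The 10 reproducible peaks fell in 4 of the 16 sites and covered 368 bases, or 0.410% of the gene, within a stretch of 24.3 kb. Their log2 folds ranged from 3.64 to 6.40, and 9 of the 10 lay above the median of the reproducible list, 4.62. The highest ranked 52 of 1717.

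The densest site was chr10:73055081-73055200, 41.7 kb from the gene start, with 5 reproducible peaks in 120 bases. In the reproducible list its peaks stood, in the direction of transcription, at log2 4.95, 5.49, 5.93, 6.40 and 6.25. The highest of them, chr10:73055113-73055128, corresponds to an 84.3-fold excess of IP over input. As described below, this value is read as the mean of both replicates' log2 folds, and no interval was given for it. The replicate 1 cluster that starts at the same position had only 2 input reads.

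Replicate 1 divided this site into 6 clusters, all enriched. In the direction of transcription, their IP over input reads were 178 over 6, 322 over 5, 361 over 5, 770 over 6, 657 over 2 and 621 over 2. Their log2 folds in the same order were 3.16 (95% interval 2.01 to 4.62), 4.27, 4.44, 5.27, 6.63 (4.77 to 9.67) and 6.54, higher towards the end of the site. The lowest and the highest of these folds have intervals that do not overlap.

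Replicate 2 divided it into 7 clusters, also all enriched, with log2 folds of 6.48, 6.73, 6.54, 6.59, 6.16, 5.96 and 5.06 in the same direction. The first of these rested on 148 IP and 3 input reads (95% interval 4.90 to 8.77) and the last on 37 IP and 2 input reads (3.11 to 8.16). The middle 3 of the 7 were listed at the p limit of 400, where fold and p fix only a minimum of reads. The largest of these minimums was 374 IP and 7 input reads.

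The replicates had different profiles over the same 120 bases. Towards the end of the site the intervals of both overlapped, while near its start the folds were 3.16 in replicate 1 and 6.73 in replicate 2, with intervals of 2.01 to 4.62 and 5.16 to 9.02 that do not overlap. Touching clusters may count some of the same reads, so the values within a site are not independent.

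**Figure D2:**
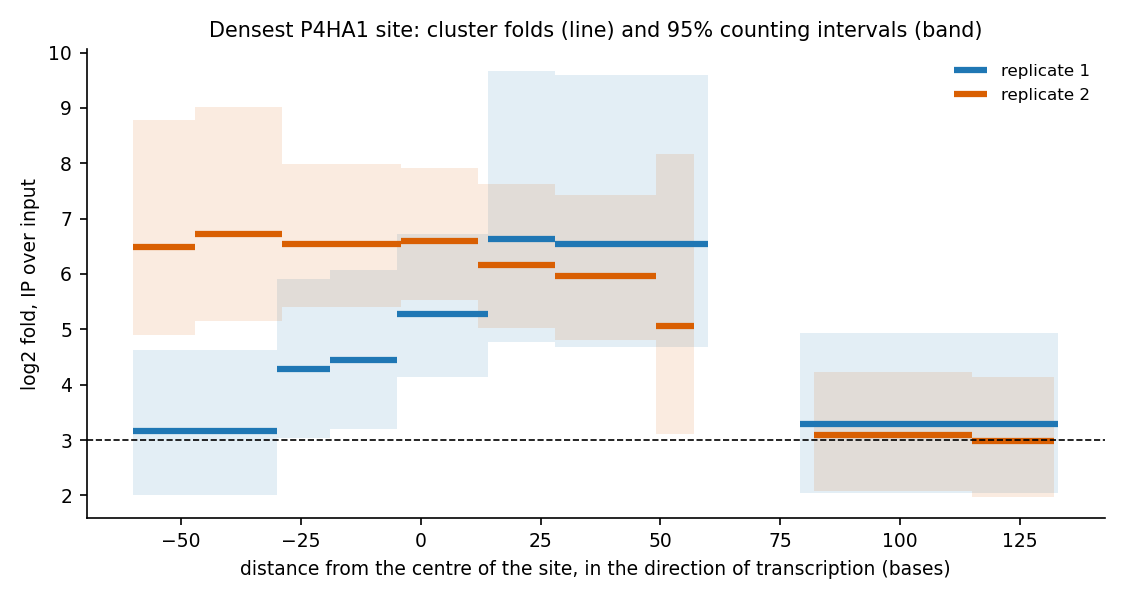
Log2 fold of IP over input (vertical axis) of the clusters at the densest P4HA1 site, by distance from its centre in bases (horizontal axis, in the direction of transcription). Lines are clusters, bands are 95% counting intervals (at the p limit, computed from minimum reads). Replicate 1 stands at 3.16 at the left edge and at 6.54 at the right edge of the site, replicate 2 lies between 5.06 and 6.73, and the lower clusters to the right are the smaller neighbouring site.

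A smaller site lay just downstream of it in the direction of transcription, at chr10:73055008-73055061. It had a log2 fold of 3.29 in replicate 1 (163 IP over 5 input reads) and at most 3.09 in replicate 2 (47 IP over 10 input reads). It passed the threshold in both replicates but held no reproducible peak.

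The next strongest sites were chr10:73034594-73034659 and chr10:73039129-73039200, at 62.2 and 57.7 kb from the gene start, each with 2 reproducible peaks. At 62.2 kb, replicate 1 had log2 folds of 5.47 and 5.28, from 442 and 389 IP reads over 3 input reads each. Replicate 2 had 6.83 and 5.57 there, from 126 IP over 2 input reads and 131 IP over 5 input reads. The lower bounds of all 4 folds were above log2 3, the least of them 3.73.

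At 57.7 kb, replicate 1 had log2 folds of 5.34 and 5.01, from 135 and 107 IP reads over 1 input read each. Replicate 2 had 5.78 and 6.71, from 122 IP over 4 input reads and 116 IP over 2 input reads. The lower bounds were 2.84 and 2.50 in replicate 1 and 4.39 and 4.83 in replicate 2. The intervals of replicate 1 at this site, on 1 input read per cluster, reached below log2 3.

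The weakest reproducible peak of P4HA1, chr10:73058792-73058902 at 38.0 kb, was enriched in replicate 2 alone. Its fold of 3.64 is the mean of log2 2.70 in replicate 1, from 130 IP over 6 input reads, and 4.58 in replicate 2, from 53 IP over 4 input reads. Replicate 1 alone did not pass log2 3 there. The other 9 peaks overlapped an enriched cluster in both replicates.

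The way the deposited list combined the replicates could be read from its values. For the 9 peaks of the whole list that were identical to a cluster in both replicates, the fold was the mean of both log2 folds and the −log10 p was the smaller of both. Of 777 peaks whose interval came from replicate 1 alone, 774 had a fold that, as a mean, gives a whole-number read ratio in replicate 2, against 0 after a shift of the scale. The same held for all 928 peaks whose interval came from replicate 2 alone. Read this way, 353 of the 1714 peaks that could be separated had a log2 fold under 3 in 1 replicate, among them the P4HA1 peak at 38.0 kb. The replicate 2 fold was the higher of the pair in 8 of the 10 P4HA1 peaks. The share over all separated peaks is not given here. Over all 87894 pairs of overlapping clusters in the lists, the median difference, replicate 1 minus replicate 2, was −1.36. Those pairs are not limited to reproducible peaks, so their median gives no expected share for the peaks. Without such a share, nothing particular to P4HA1 is read from the 8.

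Of the 10 sites enriched in replicate 2 only, the one with the highest fold was chr10:73031366-73031507, with log2 4.94 from 34 IP over 2 input reads in replicate 2. Replicate 1 had 0.50 there, from 47 IP over 10 input reads. Among the 15 sites with a value in both replicates, it was the single one whose 95% intervals at the highest fold do not overlap, at −0.51 to 1.65 in replicate 1 and 2.98 to 8.04 in replicate 2.

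The sites differed in how close they stood to the threshold in the replicate that missed it. Of those enriched in replicate 2 only, the sites at 11.8, 26.8, 46.1, 46.4, 62.7 and 86.0 kb were far below it. Their highest log2 folds in replicate 1 were 1.00, 0.85, 1.57, 1.44, 0.97 and 1.66. A further 1, at 56.9 kb, had no cluster in replicate 1. Other sites stood closer to the threshold. Near the end of the gene, chr10:73010734-73010812 had log2 2.77 in replicate 1 and 4.08 in replicate 2. The sites enriched in replicate 1 only, at 25.8 and 79.6 kb, had 3.51 and 3.22 in replicate 1 against 2.91 and 2.52 in replicate 2. The highest fold of a site was higher in replicate 2 at 12 of the 15 sites. Of these 15, 9 were enriched in replicate 2 only, where a higher fold in replicate 2 follows nearly by definition. Nothing is therefore read from this count.

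**Figure D3:**
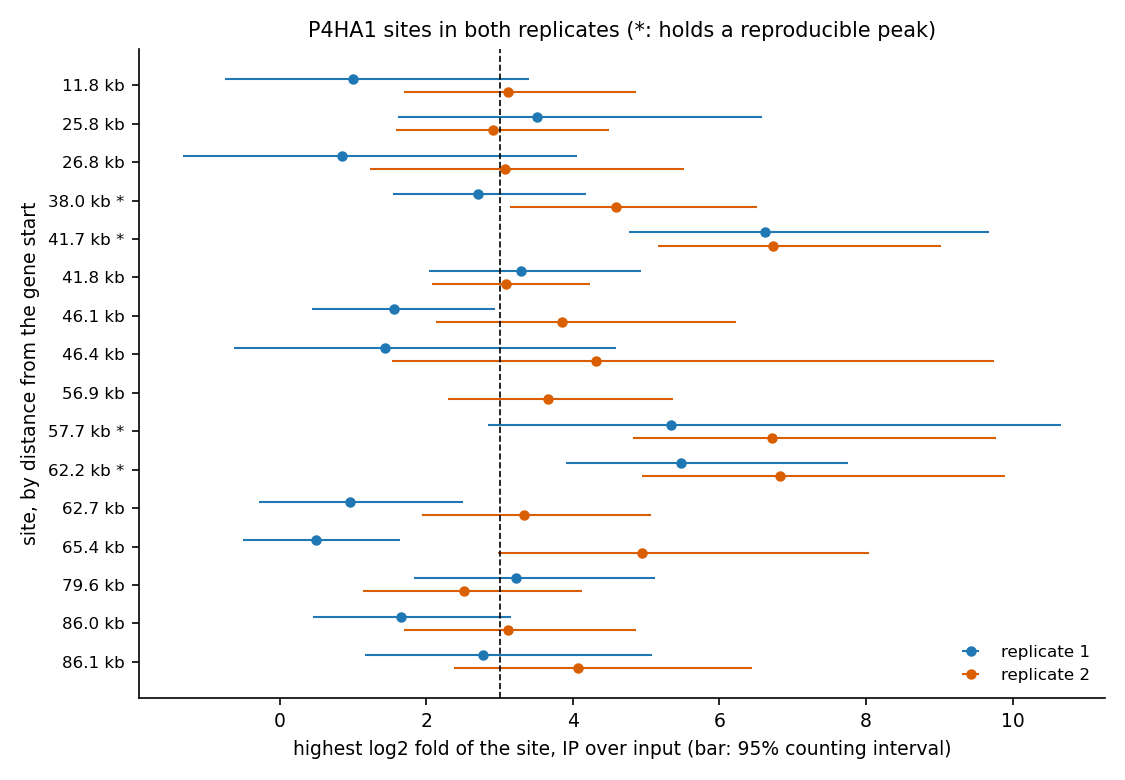
Highest log2 fold of IP over input (horizontal axis) at each of the 16 P4HA1 sites, listed from the gene start downwards by distance in kb, with bars for the 95% counting interval. The points of both replicates at 41.7, 57.7 and 62.2 kb lie at log2 5.34 or higher, far above the dashed line at log2 3, and the site at 65.4 kb is the one whose bars do not overlap.

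P4HA1 RNA was also covered where IP held no excess over input. In the last 1 kb of the gene, a stretch chosen after its values were seen, replicate 1 had 7 clusters with log2 folds of −2.21 to 0.18, and replicate 2 had 2 clusters at −2.52 and −2.26. A replicate 1 cluster there, with a log2 fold of −1.47, held at least 77 IP and 64 input reads. None of the 9 clusters in this last stretch was enriched.

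Of the 16 sites of P4HA1, 4 were enriched in both replicates. The enriched clusters of P4HA1, several of which can make up 1 site, overlapped as follows. Of its 14 enriched clusters in replicate 1, 11 were overlapped by an enriched cluster of replicate 2 (78.6%, exact 95% binomial interval 49.2% to 95.3%, against 41.9% of all replicate 1 enriched clusters), and all 14 by some cluster. Of the 23 in replicate 2, 12 were overlapped by an enriched cluster of replicate 1 (52.2%, 30.6% to 73.2%, against 14% of all replicate 2 enriched clusters). These shares treat clusters as independent, although neighbours touch. The gene was chosen on these values, so nothing is read from the difference to all enriched clusters, which was not tested.

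By mutual best overlap, 76 clusters of P4HA1 could be paired. Pearson's r between their log2 folds was 0.85 and Spearman's rho was 0.82, which describes clusters of 1 gene that share libraries and, in part, reads. The median log2 fold was 0.55 in replicate 1 and 2.18 in replicate 2, and the median of the differences, replicate 1 minus replicate 2, was −1.32. Over all 87894 pairs of the lists that median was −1.36. In P4HA1, 13 of the 76 pairs were higher in replicate 1, and the share over all pairs is not given here.

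With a minimum of input reads in both replicates, P4HA1 and the lists as a whole moved apart. At 10 or more input reads the median difference was −1.99 over 11 pairs in P4HA1 and −0.26 over 6817 pairs in all. At 15 or more it was −2.11 over 5 pairs in P4HA1 and 0.12 over 3285 pairs in all. Both cut-offs on input reads were set with the values in view, a cluster of which only the read ratio is known counted with its lowest terms, and the gene was not tested against the rest.

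**Figure D4:**
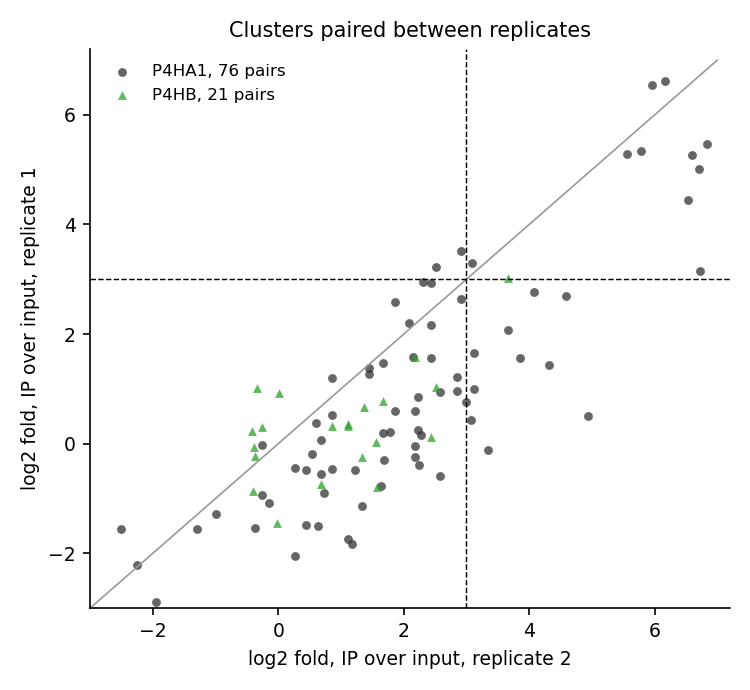
Log2 fold of IP over input of paired clusters in replicate 1 (vertical axis) against replicate 2 (horizontal axis), for 76 P4HA1 pairs and 21 P4HB pairs. Most points lie below the diagonal of equal folds, and the pairs past log2 3 in both replicates (dashed lines) are P4HA1 pairs except for the P4HB pair at 3.02 and 3.66.

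P4HA2, the gene of another alpha subunit, had no enriched cluster. It had 32 clusters in replicate 1, with log2 folds between −2.15 and 2.73 and a median of −0.15, and no cluster in replicate 2. None of the 32 was enriched, which allows a share of up to 9.38%, against 1.39% of all replicate 1 clusters. A count of 0 among so few clusters does not set P4HA2 apart from the whole list. Its highest cluster, chr5:132190644-132190732, rested on 22 IP reads over 1 input read (95% interval 0.10 to 8.09).

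The P4HA2 cluster nearest to a call was chr5:132191854-132191963, with 41 IP over 2 input reads, a log2 fold of 2.62 and a −log10 p of 2.74. For 23 of the 32 clusters the p was too close to 1 to fix more than the lowest ratio of reads. Absent binding could not be told apart from low coverage of P4HA2 at this depth. At 1 input read, 37 IP reads were the fewest that made an enriched cluster in replicate 1, and 9 in replicate 2.

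P4HB, the gene of the beta subunit, had more clusters than P4HA2 and also no reproducible peak. It had 60 clusters in replicate 1, with log2 folds between −1.44 and 3.02 and a median of 0.30, and 0 were enriched, which allows a share of up to 5.0%, against 1.39% of all clusters. In replicate 2 it had 28 clusters between −0.43 and 3.66 with a median of 1.12, of which 1 was enriched (3.57%, against 12.8% of all clusters). That cluster, chr17:81849150-81849241, had log2 3.08 from 14 IP over 3 input reads, and its interval reached down to 1.24.

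The highest P4HB clusters overlapped between the replicates at 3.8 kb from the gene start. Replicate 1 had log2 3.02 there from 27 IP over 1 input read, and replicate 2 had 3.66 from 7 IP over 1 input read. Neither passed the p threshold, at −log10 p of 1.94 in replicate 1 and 2.398 in replicate 2. Across 21 pairs the median log2 fold was 0.30 in replicate 1 and 1.12 in replicate 2, and the median difference, replicate 1 minus replicate 2, was −0.70. It was 0.45 over the 6 P4HB pairs with 10 or more input reads in both replicates and 0.49 over the 2 pairs with 15 or more, so its sign turned with these cut-offs, which that of P4HA1 did not.

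**Figure D5:**
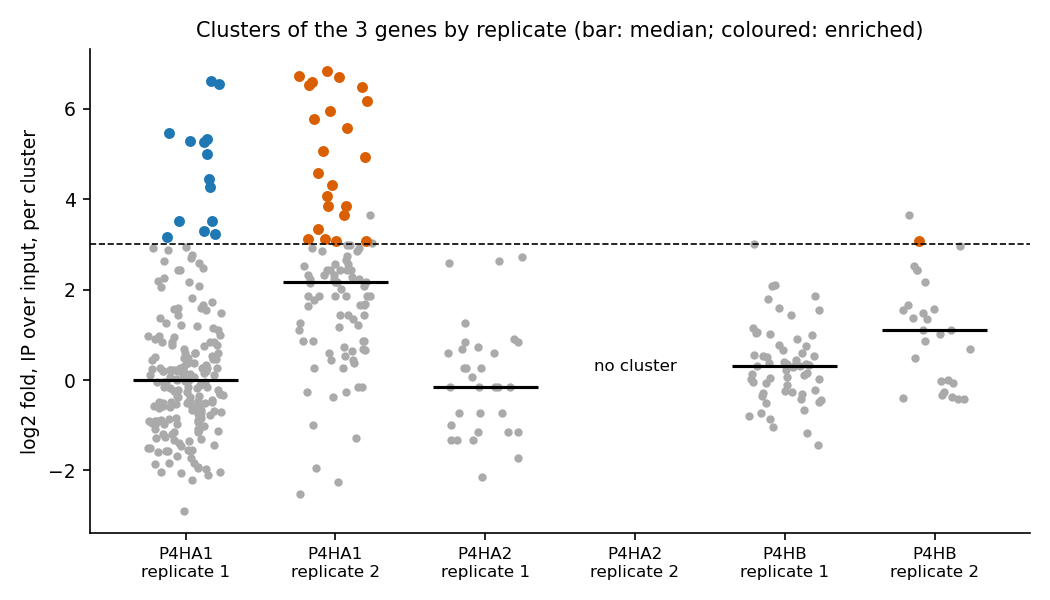
Log2 fold of IP over input (vertical axis) of every cluster of P4HA1, P4HA2 and P4HB in each replicate, with a bar at the median and enriched clusters coloured. Folds above log2 4 occur in P4HA1 in both replicates, and P4HA2 has no cluster in replicate 2.

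The other genes of collagen hydroxylation and folding had no reproducible peak. Of 13 genes, 11 could be counted by strand, and 0 had a reproducible peak, against 4.04% of all protein-coding genes with a cluster. Enriched clusters occurred in 2 of these genes in replicate 1 and in 3 in replicate 2, against 16.2% and 33.5% of all protein-coding genes with a cluster. PLOD1, a lysyl hydroxylase, had 1 enriched cluster in replicate 1 and 3 in replicate 2, with highest log2 folds of 3.51 and 4.59. SERPINH1, a chaperone of procollagen, had 2 in replicate 1 and 1 in replicate 2, with highest folds of 4.49 and 3.66. CRTAP, a partner of the prolyl 3-hydroxylase complex, had 0 in replicate 1 and 1 in replicate 2.

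Among 6 other prolyl and asparaginyl hydroxylases, EGLN1 alone had reproducible peaks, against 4.04% of all protein-coding genes with a cluster. Enriched clusters occurred in 2 of the 6 genes in replicate 1 and in 2 in replicate 2, against 16.2% and 33.5% of all such genes. EGLN1 encodes the prolyl hydroxylase that marks the hypoxia factor HIF-1 alpha for degradation in the presence of oxygen. Its 3 reproducible peaks touched each other, between chromosome 1 positions 231414919 and 231415009 on the minus strand, with log2 folds of 5.41, 6.89 and 6.52. Replicate 1 reached 5.29 there from 261 IP over 2 input reads, and replicate 2 reached 7.71 from 116 IP over 1 input read.

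The next list held 16 genes, namely protein disulfide isomerases, the enzyme family of P4HB, and their oxidases. Of these 16, 4 had an enriched cluster in replicate 1, 5 in replicate 2 and 1 in both. The shares over all protein-coding genes with a cluster were 16.2% in replicate 1 and 33.5% in replicate 2. None of the 16 had a reproducible peak, against 4.04% of all, and nothing particular to these genes is read from these counts. PDIA4 and PDIA6 had 4 enriched clusters each in replicate 2 and 0 in replicate 1. PDIA5 had 2 in replicate 1 and 0 in replicate 2, while TMX2 had 0 in replicate 1 and 2 in replicate 2. PDIA3 had 1 in each replicate, at log2 3.51 in replicate 1 and 3.44 in replicate 2.

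The genes most like P4HA1 in their counts of enriched clusters and reproducible peaks and in their highest folds were PRKCA, RRM2, ARID4B, CCDC47 and SIRT1. Likeness is the Euclidean distance over those 5 values, with counts as log2 of the count plus 1, among 429 other protein-coding genes with a reproducible peak and clusters in both replicates. The distance was 0.91 for PRKCA, 1.11 for RRM2, 1.46 for ARID4B, 1.52 for CCDC47 and 1.53 for SIRT1, against a median of 3.99. PRKCA, a protein kinase C, had 12 enriched clusters in replicate 1, 30 in replicate 2 and 8 reproducible peaks. SIRT1, a deacetylase, had 10 in replicate 1, 12 in replicate 2 and 8 reproducible peaks.

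The p-values listed for P4HA1 matched different tests in different clusters. The deposited p matched an exact binomial test where a read count or an expected count was under 5, and a chi-square test with a continuity correction otherwise. In P4HA1, 9 of the 14 enriched clusters of replicate 1 matched the exact test and 5 the chi-square. In replicate 2, 13 matched the exact test, 7 the chi-square and 3 stood at the limit of 400. The cluster with 770 IP over 6 input reads was listed at −log10 p 48.3, where an exact test gives 76.99. Its neighbour with 657 IP over 2 input reads was listed higher, at 70.7, from the exact test. In replicate 2 the highest value below 400 that matched the chi-square was 88.2. For clusters listed at 400, the minimum reads assume that 400 was written wherever the chi-square passed that value. They are the fewest reads, at least 5 of IP and of input, that do so. A listed 400 is thus not read as the size of p.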

How the data were processed

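Per the submitters' processing notes, reads were trimmed with cutadapt 1.9 and mapped with STAR 2.4.0i. The peak caller and the rule for combining replicates are not given in the sources used here. Those notes name hg19 and GRCh38, and the coordinates of the lists are GRCh38, counted from 1 here. The authors deposited 3 lists with 2 values per cluster, a log2 fold of IP over input and a −log10 p whose highest listed value is 400. The total reads per library are unknown.

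Reads were recovered with Python 3.11.15 and scipy 1.17.1. Folds were log2 ratios of whole numbers (denominators up to 200, tolerance 1e-07) plus a constant, which was set so that the fold found most often stands for 3 IP reads and 1 input read. The multiple was fixed by the p-value within 0.02. A −log10 p of at least 0.02 was listed for 170722 of 534161 clusters in replicate 1 and 136959 of 155848 in replicate 2. Of these, 99.9% in replicate 1 and 99.8% in replicate 2 were given reads. In P4HA1, only the lowest ratio of reads is known for 107 of 202 clusters in replicate 1 and 10 of 99 in replicate 2. On clusters simulated with the same constant and the same p-value tests, the right reads came back in 99.8% and 99.5% of 1500 each. That simulation drew few input reads and only log2 folds above 0. It cannot check the constant itself, which it took as given. Clusters with a lower −log10 p keep their lowest terms, so their reads, used in input minimums, are minimums. PCR reads are not independent molecules, and a count of 0 was limited by 3 counts.

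Strands came from the RefSeq promoter table, which gave 27305 of 59792 genes a strand. For genes of the lists without one, the strand was that of at least 80% of 5 or more clusters lying in that gene alone. P4HA3 and P3H4 could not be counted. The genes neighbouring P4HA1 are not reported here. A cluster in several spans counted for each. The members and lists were chosen with earlier results of these data known. The genes named are the 3 members, those of the lists with a reproducible peak or the most enriched clusters, and the 5 genes nearest to P4HA1 by the distance given. Further genes named from the lists were chosen after their values were seen. No test between samples was made, since each list gives 1 value per cluster. Alternatives covered thresholds, overlap, merging and input minimums. For the reproducible peaks they also covered overlap with the enriched clusters of each replicate alone.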

Additional observations from a re-analysis of the deposited data

How the results depend on the processing

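Of 75 alternatives, 56 stayed within 1.5 times the reported count, or, for the share and the median, within its interval or 10% of it. Many of those that stayed were counts of 0 in P4HA2 and P4HB. Several of these could not move, since P4HA2 had no cluster in replicate 2 and neither gene had a reproducible peak. The 56 is therefore no measure of how stable the P4HA1 counts were. At log2 fold 2 and 4, P4HA1 had 23 and 9 enriched clusters in replicate 1, 40 and 15 in replicate 2, and P4HB had 4 and 0 in replicate 2. Merging touching clusters gave 6 P4HA1 sites in replicate 1, 14 in replicate 2 and 5 reproducible sites. Requiring a lower 95% bound of at least 3, chosen after seeing the data, left 7 and 12 in P4HA1 and 0 in P4HB, which also had 0 at −log10 p 5. The P4HA1 overlap share was 100% when any replicate 2 cluster counted and at log2 fold 4. The median difference of pairs was −1.47 with 5 input reads, −1.99 with 10, −2.11 with 15 and −1.46 over pairs enriched in at least 1 replicate. Without replicate 1, 10 of the 10 reproducible peaks of P4HA1 overlapped an enriched cluster of the remaining replicate, and without replicate 2, 9 did, while P4HA2 and P4HB had 0 in both cases. The peaks were still those of the list that combines both replicates. Neither replicate was thus left out of the peaks, and the outcome was largely set by how the list was made. Apart from the construction of each setting, the cause was not tested. No paired analysis was possible because each list gives 1 value per cluster, already IP over the input of the same number. Folds over 1 or 2 input reads are limited by depth.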
